A study of Capra hircus with 6 samples.

Results

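The microglia and macrophage genes were a set of 34 named genes, chosen by symbol in the deposited count table: receptors and adaptors of microglia, complement components, and markers and survival factors of brain macrophages. A row carried the symbol of 33 of them, out of 28907 rows in the table, and no row carried CD163, a haemoglobin scavenger receptor of perivascular macrophages. The 33 rows all passed the filter on low counts, with 51 counts as the lowest single value (LYVE1 in follicular pool 1).

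The counts came from poly(A) RNA sequencing of the medio-basal hypothalamus of adult Alpine goats (Capra hircus), the block of tissue above the pituitary that includes the median eminence. The follicular group was taken in January during the follicular phase of the oestrous cycle, from 5 goats. The anestrus group was taken in mid-May, in the season without ovarian cycles, from 8 goats. Each library was a random equimolar mix of RNA from goats of its group, with 2 such pools per group, so p-values measure the spread between pools and not between goats. January luteal-phase goats were also part of the study, and their libraries were not analysed here. Season and ovarian state changed together between the groups, so they cannot be told apart.

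Microglia are the resident macrophages of the brain parenchyma. They depend on the CSF1 receptor, which is activated by CSF1 and IL34, survey the tissue through purinergic and chemokine receptors such as P2RY12 and CX3CR1, and take up debris with the help of TREM2 and its adaptor TYROBP. They make most of the brain's C1q, the first component of the classical complement pathway. A smaller population of macrophages lies along blood vessels and in the meninges, and carries the mannose receptor MRC1, LYVE1 and CD163.

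Library totals ran from 14553821 counts (anestrus pool 1) to 25292678 (follicular pool 1). Over 16756 genes tested, 34 (0.203%) had an adjusted p under 0.05 by the quasi-likelihood test of edgeR, the threshold for a gene that passed. Summed levels of markers of other cells differed between the same pools, while 1 of the 7 astrocyte markers and 0 of the 7 oligodendrocyte markers passed. Summed CPM (read counts scaled to the normalised size of each library) was 9480 and 10575 in follicular pools 1 and 2 against 5822 and 6050 in anestrus pools 1 and 2 for 7 astrocyte markers. For 7 oligodendrocyte markers it was 3151 and 4326 in the follicular pools against 2688 and 1724 in the anestrus pools. For 6 pituitary and pars tuberalis markers it was 6931 and 5322 in the follicular pools against 15383 and 11758 in the anestrus pools. Most of the pituitary sum was CGA, the hormone alpha subunit, at 5232 and 4295 CPM in the follicular pools against 13142 and 10309 CPM in the anestrus pools, while CHGA on that list had a log2 fold change of 0.98 without passing. Whether these marker differences lie in tissue make-up or in expression of the marker genes was not tested, nor was their part in the values below. In RNA from whole tissue, fewer cells of a type and less RNA per cell cannot be told apart. Below, paired values are for pools 1 and 2 of a group, in that order.

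Most of the microglia and macrophage genes had slightly higher levels in the follicular pools, and 1 gene, BLNK, passed the test, in the other direction. Of the 33 genes, 26 had a positive log2 fold change (follicular over anestrus), or 78.8%, where 49.9% of all genes tested had one. The median log2 fold change was 0.21 over the 33 genes and -0.00067 over all genes, and the standard errors of the single genes had a median of 0.27. The remaining 32 genes did not pass, and their smallest adjusted p was 0.470. The pools of the groups did not overlap for 12 of the 33 genes, 8 with both follicular pools above and 4 with both below, while over all genes the shares were 38.3% in either direction, 17.6% above and 20.7% below. The members' share without overlap was thus near the background. Over 12 alternative settings, between 24 and 26 of the 33 genes had a positive log2 fold change, and the median stayed between 0.17 and 0.26.

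**Figure D1:**
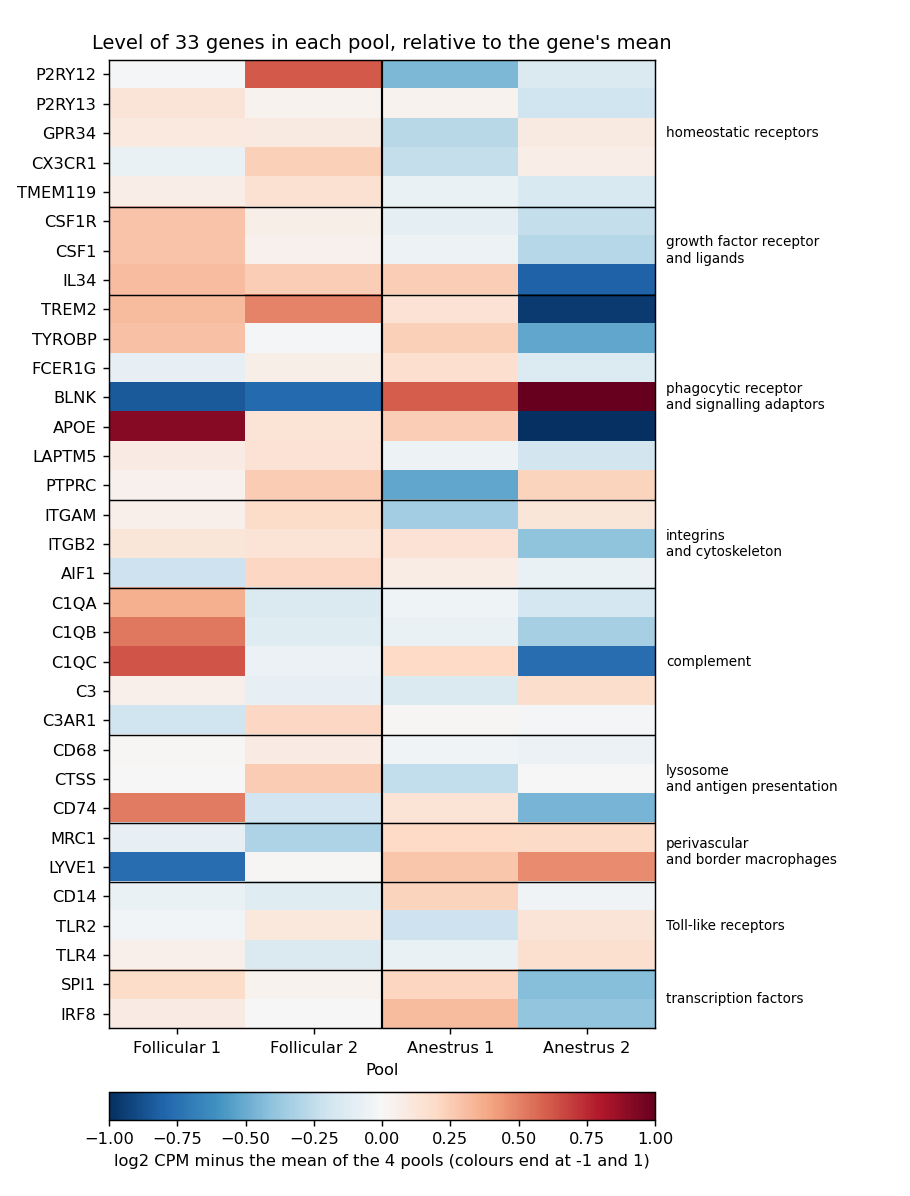
Level of each of the 33 genes in the 4 pools, as log2 CPM minus the gene's mean over the pools (red above, blue below), in order of role. BLNK is blue in both follicular pools and red in both anestrus pools, whereas APOE, TREM2, IL34 and C1QC are bluest in anestrus pool 2.

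BLNK (gene 102191104) encodes the B cell linker, an adaptor that the kinase SYK phosphorylates below the B cell receptor and that myeloid cells also express. It was at 7.83 and 8.19 CPM in the follicular pools, against 21.4 and 28.3 CPM in the anestrus pools, from 199, 141, 305 and 509 counts. Both follicular pools lay close together and well below either anestrus pool. BLNK was 3.10-fold lower in the follicular phase, with a log2 fold change of -1.63 ± 0.27 (standard error) and an adjusted p of 0.0492 (edgeR). It thus passed narrowly, and 0.191% of all genes passed in that direction and 0.0119% in the other. The log2 fold change ran from -1.82 to -1.37 over 12 alternatives. The call was lost in limma-voom (0.0542), without robust estimation (0.0538) and without follicular pool 1 (0.745).

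Several genes that mark B cells were near 0 in all pools. CD79B, a subunit of the B cell receptor, had 0 counts in the 4 pools. MS4A1 (CD20) was at 0.197 and 0.116 CPM in the follicular pools and 0.210 and 0.111 CPM in the anestrus pools. PAX5, the transcription factor of B cell identity, was at 0.236 and 0.174 CPM in the follicular pools and at 0.0701 and 0 CPM in the anestrus pools. CD79A and JCHAIN, the joining chain of immunoglobulins, had log2 fold changes of -0.66 ± 0.45 and -0.70 ± 0.34 without passing. Summed over the 6 listed B cell markers, the level was 16.1 and 16.6 CPM in the follicular pools against 23.3 and 20.04 CPM in the anestrus pools. The ratio of BLNK to CSF1R counts within a library was chosen after the values were seen. CSF1R was itself higher in both follicular pools, which lowers this ratio there. The ratio was 0.0686 and 0.0841 in the follicular pools against 0.244 and 0.356 in the anestrus pools. SYK, the kinase upstream of BLNK, was on the other side, at 61.9 and 62.0 CPM in the follicular pools against 39.5 and 46.6 CPM in the anestrus pools, and did not pass (log2 fold change 0.52 ± 0.18, adjusted p = 0.424).

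The homeostatic receptors of microglia all had positive log2 fold changes, and none of the 5 passed. P2RY12, the ADP receptor that directs microglial processes to sites of injury, was at 64.0 and 99.5 CPM in the follicular pools against 47.7 and 58.8 CPM in the anestrus pools. Its follicular pools lay apart from each other but both above the anestrus pools, and the log2 fold change was 0.62 ± 0.23 (unadjusted p = 0.0230, adjusted p = 0.470). At an unadjusted p under 0.05, 2 of the 33 genes passed, P2RY12 and BLNK, as did 8.55% of all genes. Without anestrus pool 2 the log2 fold change of P2RY12 was 0.82, and its range over all alternatives was 0.27 to 0.92.

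CX3CR1, the receptor of the neuronal chemokine fractalkine, was at 53.3 and 66.2 CPM in the follicular pools and 47.5 and 58.6 CPM in the anestrus pools, and these ranges overlapped. GPR34, a lysophosphatidylserine receptor, was nearly equal in 3 pools, at 20.9 and 20.7 CPM in the follicular pools and 20.8 CPM in anestrus pool 2, with 16.1 CPM in anestrus pool 1. TMEM119, a membrane protein used to tell microglia from blood-derived macrophages, was at 19.4 and 20.6 CPM in the follicular pools against 17.7 and 16.7 CPM in the anestrus pools, without overlap. Its log2 fold change of 0.22 ± 0.24 was smaller than its error. P2RY13, a second ADP receptor next to P2RY12, had a log2 fold change of 0.16 ± 0.33. By RefSeq's annotation of assembly ARS1.2, both genes lie within the span of MED12L. The strand setting of the authors' counting is not given in the sources used here, so reads shared with MED12L cannot be set apart. MED12L itself was at 26.9 and 26.6 CPM in the follicular pools and 22.2 and 28.9 CPM in the anestrus pools (log2 fold change 0.06). The span of CSF1R likewise overlaps that of HMGXB3, which was at 32.5 and 23.6 CPM in the follicular pools and 26.4 and 27.1 CPM in the anestrus pools.

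P2RY12 was higher in the follicular pools relative to AIF1 and CX3CR1 too, a comparison chosen after its values were seen and given without a test. The ratio of P2RY12 counts to those of AIF1 in the same library was 1.10 and 1.29 in the follicular pools against 0.676 and 0.916 in the anestrus pools. Relative to CX3CR1 it was 1.201 and 1.504 in the follicular pools against 1.004 in both anestrus pools. Relative to CSF1R the groups overlapped, at 0.561 and 1.02 in the follicular pools against 0.544 and 0.740 in the anestrus pools.

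CSF1R (gene 100861303), the receptor on which microglial survival depends, was at 114 and 97.4 CPM in the follicular pools against 87.6 and 79.4 CPM in the anestrus pools. The groups did not overlap, and the log2 fold change of 0.34 ± 0.17 did not pass (adjusted p = 0.634). Of its ligands, CSF1 was at 14.7 and 12.5 CPM in the follicular pools against 11.7 and 9.94 CPM in the anestrus pools, with a log2 fold change of 0.33 ± 0.28. IL34, the ligand that neurons supply in the mouse brain, was at 25.1 and 24.1 CPM in the follicular pools and at 24.1 and 11.6 CPM in the anestrus pools. The IL34 difference therefore lay in anestrus pool 2 alone. Its log2 fold change of 0.47 ± 0.33 came to 0.073 when that pool was left out and to 1.08 without anestrus pool 1. CX3CL1, the ligand of CX3CR1 that neurons make, was at 143 and 128 CPM in the follicular pools against 112 and 98.7 CPM in the anestrus pools (log2 fold change 0.36 ± 0.16, adjusted p = 0.589). The 8 neuron markers summed to 4013 and 4689 CPM in the follicular pools against 3655 and 3486 CPM in the anestrus pools. The part of these markers in the CX3CL1 and IL34 values was not tested.

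**Figure D2:**
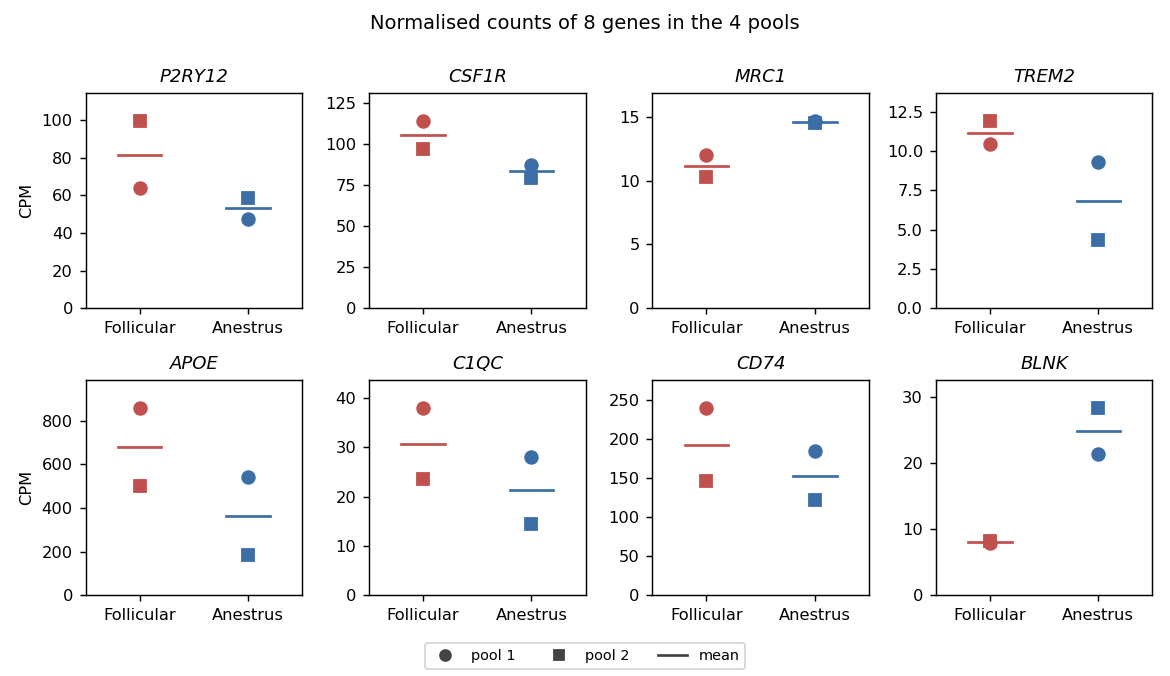
CPM of 8 of the genes in the 4 pools (circles, pool 1; squares, pool 2; lines, group means), follicular left of anestrus. The groups are separate for P2RY12, CSF1R, TREM2, MRC1 and BLNK and overlap for APOE, C1QC and CD74, where pool 1 is higher than pool 2 in each group.

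TREM2, the lipid-sensing receptor that starts the phagocytic and lipid-handling state of microglia, was at 10.5 and 11.9 CPM in the follicular pools, against 9.32 and 4.33 CPM in the anestrus pools. Its log2 fold change was 0.72 ± 0.38 (edgeR adjusted p = 0.668). It came to 0.31 when anestrus pool 2 was left out and to 1.37 without anestrus pool 1. TYROBP, the signalling adaptor shared by TREM2 and other receptors, overlapped between groups, at 25.7 and 20.7 CPM in the follicular pools and 24.7 and 14.6 CPM in the anestrus pools. FCER1G, the adaptor of Fc receptors, had a log2 fold change of -0.03 ± 0.24 and LAPTM5, a lysosomal membrane protein of blood-lineage cells, of 0.23 ± 0.16. LAPTM5 was at 185 and 193 CPM in the follicular pools against 169 and 154 CPM in the anestrus pools, without overlap. PTPRC (CD45), the phosphatase carried by all white blood cells, was at 20.2 and 23.3 CPM in the follicular pools and at 13.6 and 22.8 CPM in the anestrus pools, and was low in anestrus pool 1 only.

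APOE, the lipid carrier of the brain, a TREM2 ligand made by astrocytes and by activated microglia, overlapped between the groups and differed 1.71-fold between the follicular pools and 2.91-fold between the anestrus pools. It was at 857 and 502 CPM in the follicular pools and at 542 and 186 CPM in the anestrus pools. The log2 fold change was 0.90 ± 0.59 (adjusted p = 0.786), and came to 0.37 when anestrus pool 2 was left out and to 1.87 without anestrus pool 1. In each of those fits the single anestrus pool was assumed to vary like the follicular pools. TTR, transthyretin of the choroid plexus, a gene named after its values were seen, had the same order of the 4 pools, at 252 and 27.4 CPM in the follicular pools and 61.1 and 17.7 CPM in the anestrus pools. GFAP, an astrocyte marker, did not have this order, at 4804 and 4830 CPM in the follicular pools against 2329 and 2466 CPM in the anestrus pools. C1QA, C1QB, C1QC, CD74, TYROBP, IL34 and P2RY13 had the order as well, so it was not particular to TTR. The cell source of the APOE values was not tested.

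Among 16 measured genes of TYROBP and SYK signalling and of the white blood cell cytoskeleton, 0 passed in edgeR's test, 12 had a positive log2 fold change and the median was 0.14. At an unadjusted p under 0.05 there were 3, SYK, DOCK2 and LCP1. DOCK2, which activates Rac in blood cells, had a log2 fold change of 0.63 ± 0.28 (adjusted p = 0.580). LCP1, the actin bundler L-plastin, was at 93.1 and 83.3 CPM in the follicular pools against 110.0 and 162 CPM in the anestrus pools, a log2 fold change of -0.62 ± 0.20 (adjusted p = 0.374). Without anestrus pool 1 the LCP1 value was -0.88, and without anestrus pool 2 it was -0.27. NCKAP1L, a blood-cell subunit of the WAVE complex, had 0.25 ± 0.22.

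The integrin pair of complement receptor 3 and the calcium-binding protein AIF1 overlapped between the groups, and none passed. ITGAM (CD11b) was at 63.0 and 69.2 CPM in the follicular pools and 48.0 and 66.3 CPM in the anestrus pools (log2 fold change 0.21 ± 0.20). ITGB2, its beta chain, was between 14.6 and 14.9 CPM in 3 pools and at 10.2 CPM in anestrus pool 2. AIF1 (IBA1), the usual stain for microglia, was at 58.0 and 77.4 CPM in the follicular pools and 70.5 and 64.2 CPM in the anestrus pools (log2 fold change 0.01 ± 0.19). The sign of the AIF1 value was negative in limma-voom, with either replicate block, and without follicular pool 2 or anestrus pool 2.

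The C1q chains, which assemble together into the recognition molecule of the classical pathway, were highest in follicular pool 1. C1QA was at 34.3 and 24.3 CPM in the follicular pools and 26.0 and 23.7 CPM in the anestrus pools. C1QB was at 55.6 and 35.6 CPM in the follicular pools and 36.9 and 30.7 CPM in the anestrus pools. C1QC was at 37.9 and 23.5 CPM in the follicular pools and 28.1 and 14.4 CPM in the anestrus pools. For each chain anestrus pool 1 lay above follicular pool 2, so the groups overlapped, and anestrus pool 2 was lowest. Log2 fold changes were 0.24 ± 0.24, 0.44 ± 0.24 and 0.54 ± 0.35 for C1QA, C1QB and C1QC. Without follicular pool 1 they were -0.015, 0.094 and 0.17, and without anestrus pool 1 the C1QC value was 1.09.

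C3, the central complement protein, was at 1159 and 1054 CPM in the follicular pools and 1010 and 1259 CPM in the anestrus pools (log2 fold change -0.04 ± 0.17). C3AR1, the receptor of its C3a fragment, was at 10.2 and 13.5 CPM in the follicular pools and 11.8 and 11.5 CPM in the anestrus pools (0.02 ± 0.29). The groups overlapped for both genes. Of 20 further complement genes measured, 0 passed and 0 had an unadjusted p under 0.05 (edgeR). Of these 3 had a positive log2 fold change, and the median was -0.17. C1R, the protease that C1q activates, had a log2 fold change of -0.29 ± 0.19, its inhibitor SERPING1 -0.25 ± 0.23, the lectin-pathway protease MASP1 -0.27 ± 0.24, and CD59, which blocks the membrane attack complex, -0.17 ± 0.15.

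In the lysosome and antigen presentation group, CTSS, the protease cathepsin S of microglial lysosomes, was at 95.9 and 115 CPM in the follicular pools against 80.8 and 95.4 CPM in the anestrus pools (log2 fold change 0.26 ± 0.18). CD68, a lysosomal glycoprotein used as a sign of phagocytosis, was nearly level, at 17.4 and 18.4 CPM in the follicular pools against 16.9 and 16.6 CPM in the anestrus pools. CD74, the invariant chain of MHC class II, followed the pool order of the C1q chains, at 239 and 146 CPM in the follicular pools and 184 and 122 CPM in the anestrus pools (log2 fold change 0.34 ± 0.27). CD74 did not pass (edgeR adjusted p = 0.829). Its log2 fold change was -0.042 without follicular pool 1 and 0.67 without anestrus pool 1, fits that leave 1 pool in a group.

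Of 16 further MHC class II and lysosome genes measured, 0 passed in edgeR's test, 1 had an unadjusted p under 0.05 and the median log2 fold change was -0.09. CIITA, the master activator of MHC class II transcription, was at 2.09 and 1.63 CPM in the follicular pools against 0.841 and 0.555 CPM in the anestrus pools (log2 fold change 1.42 ± 0.55, adjusted p = 0.482). The lysosomal enzymes HEXA and LGMN lay the other way, with log2 fold changes of -0.39 ± 0.19 and -0.38 ± 0.20, neither of which passed.

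The border macrophage genes MRC1 and LYVE1 were lower in both follicular pools than in the anestrus pools, without passing. MRC1 (CD206), the mannose receptor, was at 12.004 and 10.3 CPM in the follicular pools against 14.7 and 14.5 CPM in the anestrus pools, a log2 fold change of -0.39 ± 0.27 (adjusted p = 0.775). LYVE1, a hyaluronan receptor of vessel-associated macrophages and of lymphatic endothelium, was at 2.01 and 3.43 CPM in the follicular pools against 4.14 and 4.72 CPM in the anestrus pools, a log2 fold change of -0.72 ± 0.41 (adjusted p = 0.715). For both genes the groups did not overlap, and the sign stayed negative in all 12 alternatives. Without overlap, leaving out a pool can hardly turn a sign, and the other alternatives refit the same libraries. The steady sign is therefore no further evidence. Taken against CSF1R within each library, MRC1 was 10.5% and 10.6% of the CSF1R count in the follicular pools against 16.7% and 18.3% in the anestrus pools. LYVE1 was 1.76% and 3.52% in the follicular pools against 4.72% and 5.94% in the anestrus pools. These ratios were also chosen after the values were seen. CSF1R itself was higher in both follicular pools, which lowers such ratios there, so they add no separate evidence on MRC1 or LYVE1.

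The 8 other border macrophage markers that were measured were mixed, with 3 positive log2 fold changes, a median of -0.06 and 0 passing (edgeR), 2 of them at an unadjusted p under 0.05. CD209, a C-type lectin of macrophages and dendritic cells, was at 0.787 and 0.639 CPM in the follicular pools against 2.17 and 1.55 CPM in the anestrus pools (log2 fold change -1.36 ± 0.54, adjusted p = 0.496). COLEC12, a scavenger receptor that vessel-wall cells also carry, had -0.42 ± 0.18, the scavenger receptor CD36 had -0.31 ± 0.32 and the sialic acid receptor SIGLEC1 had 0.33 ± 0.39. Markers of meninges and fibroblasts, in which such macrophages lie, summed to 773 and 857 CPM in the follicular pools against 1322 and 1153 CPM in the anestrus pools, with a median log2 fold change of -0.53 over 5 genes and 0 passing (edgeR), 4 of them at an unadjusted p under 0.05. The part of these markers in the MRC1 and LYVE1 values was not tested.

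None of the Toll-like receptors or their co-receptor passed. CD14, which hands lipopolysaccharide to TLR4, was at 25.6 and 24.6 CPM in the follicular pools against 31.3 and 26.1 CPM in the anestrus pools (log2 fold change -0.19 ± 0.22), without overlap. TLR2, which senses bacterial lipoproteins, had 0.07 ± 0.23, and TLR4 had -0.10 ± 0.34. Of 22 partner genes measured, 0 passed in edgeR's test, 1 had an unadjusted p under 0.05 and the median was 0.11. TNF, the inflammatory cytokine, was at 2.68 and 4.94 CPM in the follicular pools against 0.491 and 1.83 CPM in the anestrus pools (log2 fold change 1.66 ± 0.61, adjusted p = 0.456). Without anestrus pool 2 the TNF value was 2.97, resting on 7 counts in anestrus pool 1, and without anestrus pool 1 it was 1.04. Log2 fold changes were 0.59 ± 0.34 for CD180, a Toll-like receptor homologue, 0.64 ± 0.46 for IRAK3, a brake on Toll-like receptor signalling, and -0.65 ± 0.39 for LY96, the accessory protein of TLR4.

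SPI1 (PU.1), the transcription factor that sets myeloid identity, was at 9.05 and 8.19 CPM in the follicular pools and 9.25 and 5.94 CPM in the anestrus pools (log2 fold change 0.19 ± 0.33). IRF8, its partner in microglia, was at 13.6 and 12.9 CPM in the follicular pools and 16.0 and 9.77 CPM in the anestrus pools (0.04 ± 0.31). In both, the follicular pools lay between the anestrus pools, and the sign was negative without anestrus pool 2. Of 15 further transcription factors measured, 0 passed and 0 had an unadjusted p under 0.05 (edgeR), 12 were positive and the median was 0.25. Log2 fold changes were 0.46 ± 0.27 for CEBPA, which drives myeloid differentiation, 0.89 ± 0.51 for BATF3, a dendritic cell factor, 0.40 ± 0.34 for IKZF1, a factor of blood cell development, and -0.58 ± 0.32 for ETV5. The ETV5 value was -1.01 without anestrus pool 1.

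Of 24 measured genes on another list of microglia markers, 14 were positive and 0 passed (edgeR), and their median was 0.12, with 1 at an unadjusted p under 0.05. CD83, a surface glycoprotein of activated antigen-presenting cells, was at 38.4 and 35.5 CPM in the follicular pools against 26.6 and 23.98 CPM in the anestrus pools (0.55 ± 0.21, adjusted p = 0.476). The adenosine receptor ADORA3 had 0.56 ± 0.27 and the selectin ligand SELPLG 0.56 ± 0.31. SALL1, a transcription factor specific to microglia among myeloid cells, was named after its value was seen, and had -0.16 ± 0.19. For 18 growth factor and checkpoint partners, 0 passed (edgeR), 1 had an unadjusted p under 0.05 and the median was 0.10. Among them PROS1, a ligand of the phagocytic receptor MERTK, had -0.41 ± 0.17, the APOE receptor LRP1 0.37 ± 0.18 and the cytokine receptor chain CSF2RB 0.86 ± 0.45.

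Across the 33 genes, pools of a group differed by about as much as they did over all genes. The median absolute difference was 0.19 on the log2 scale between the follicular pools and 0.30 between the anestrus pools, and over all genes these were 0.22 and 0.31. Anestrus pool 1 was over 1.5-fold above anestrus pool 2 for 8 genes, namely APOE (2.91-fold), TREM2 (2.15-fold), IL34 (2.08-fold), C1QC (1.95-fold), TYROBP (1.69-fold), IRF8 (1.64-fold), SPI1 (1.56-fold) and CD74 (1.52-fold). PTPRC was 1.68-fold higher in anestrus pool 2. Such a gap between the anestrus pools was present for 27.3% of the 33 genes and for 24.2% of all genes. Between the follicular pools, 6 of the 33 genes differed over 1.5-fold, as did 2356 of all 16756 genes. APOE, CD74, C1QC and C1QB were higher in pool 1, and P2RY12 and LYVE1 were higher in pool 2.

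**Figure D3:**
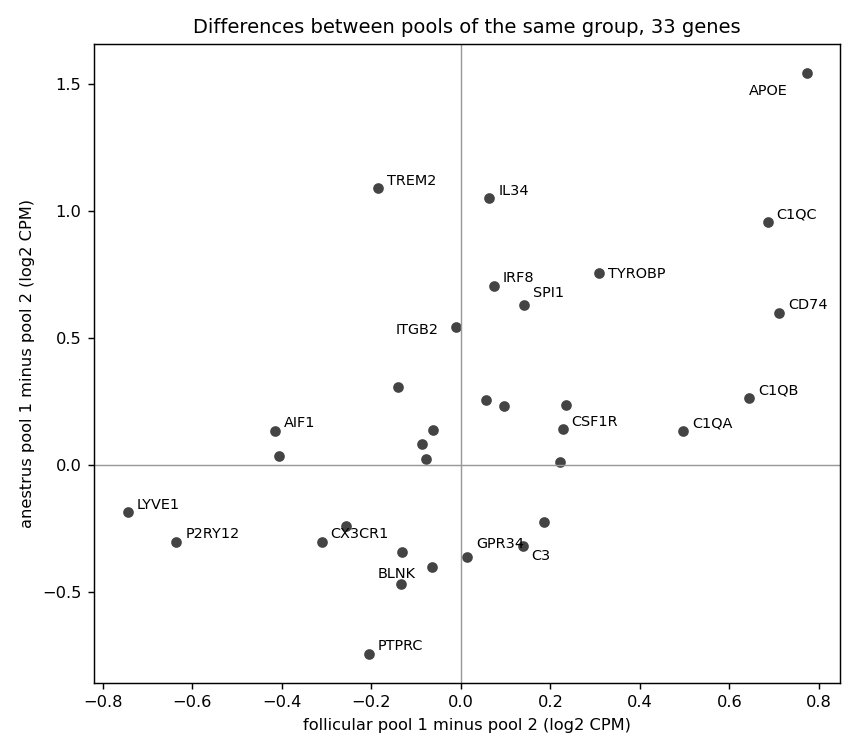
Difference between pools 1 and 2 of the same group for each of the 33 genes (log2 CPM), follicular pools on the horizontal axis and anestrus pools on the vertical axis. Pools are numbered by library names, and the sample titles number the anestrus pools the other way. APOE, C1QC, CD74 and TYROBP lie at the upper right, higher in pool 1 of each group, and P2RY12, CX3CR1, LYVE1 and PTPRC at the lower left.

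With pools numbered by library names, the pool 1 minus pool 2 differences of the 2 groups had a Pearson correlation of 0.535 across the 33 genes. All 16756 genes gave 0.259. The sample titles number the anestrus pools the other way, which turns the sign of both correlations, so no shared pool effect can be read from that sign. The correlation is a description across genes that share the same 4 libraries, not independent replicates. By library names, pool 1 was the higher one in each group in 14 genes and pool 2 in 8 genes. Over all 16756 genes these counts were 5564 and 4882. Anestrus pool 2 was the lowest of the 4 pools for 18 of the 33 genes (54.5%), beside 29.8% of all genes. Follicular pools 1 and 2 were each the highest for 11 (33.3%), beside 24.9% and 19.3% of all genes.

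Lists of other blood cell markers held 0 genes that passed in edgeR's test, with 1, AHSP, at an unadjusted p under 0.05. The 9 monocyte and neutrophil markers with a row summed to 2.48 and 3.08 CPM in the follicular pools against 10.4 and 4.66 CPM in the anestrus pools. Most of the sum in anestrus pool 1 was S100A8 (4.35 CPM) and S100A9 (3.72 CPM), neither of which passed the filter on low counts. MPO, a neutrophil enzyme, was at 0 in all 4. CXCR2, a chemokine receptor of neutrophils, had a log2 fold change of -0.0019 ± 0.51. T and NK cell markers summed to 74.6 and 72.8 CPM in the follicular pools against 65.5 and 61.7 CPM in the anestrus pools, mostly from CD247, a T cell receptor chain, and LCK, a T cell kinase. These had log2 fold changes of 0.38 ± 0.20 and 0.34 ± 0.28, while NKG7 had -0.49 ± 0.46 and CD3G -0.34 ± 0.45. CD247 and LCK were the 2 positive ones of 8 T and NK cell markers tested. The other 6 were negative, and the median over the 8 was -0.22. The mast cell list summed to 71.7 and 107 CPM in the follicular pools against 76.1 and 38.6 CPM in the anestrus pools. This sum came from HDC (0.86 ± 0.71), which histamine neurons of the hypothalamus also express, and KIT (0.19 ± 0.23), and the other 2 markers, CPA3 and MS4A2, did not pass the filter on low counts. The HDC value came to 2.13 without anestrus pool 1, and over the 12 alternatives its lowest was 0.23. With a replicate block by titles it was 1.10 (edgeR adjusted p = 0.00790), and by library names 1.07 (edgeR adjusted p = 0.775). The replicate numbers pair no known animals, and the groups overlapped for HDC. AHSP, a haemoglobin chaperone of red cell precursors, was at 1.53 and 1.74 CPM in the follicular pools against 6.52 and 3.66 CPM in the anestrus pools (-1.63 ± 0.44, adjusted p = 0.275). It passed with no count filter (-1.62, edgeR adjusted p = 0.0333), and without anestrus pool 2 the AHSP value was -1.95.

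**Figure D4:**
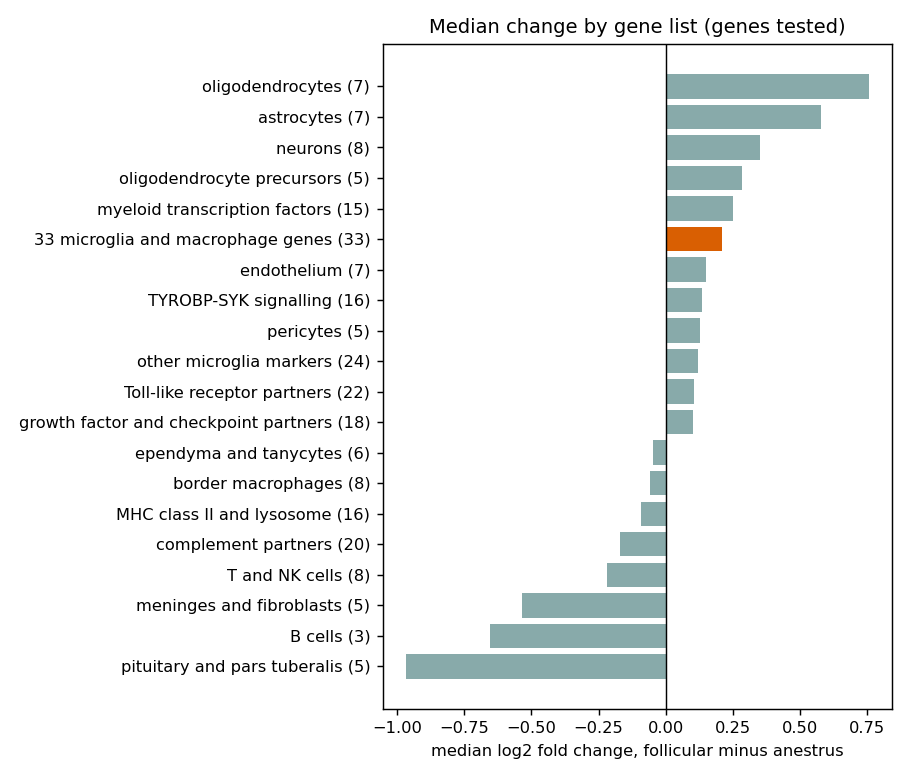
Median log2 fold change, follicular over anestrus, of the 33 microglia and macrophage genes (orange) and of each other list with at least 3 genes tested (grey, number of genes in brackets). The 33 genes, at 0.21, lie below oligodendrocyte (0.76), astrocyte (0.58) and neuron (0.35) markers and above endothelium (0.15) and pericyte (0.13) markers.

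Over the 13 immune lists together, 0 of 150 genes tested passed in edgeR's test, 10 had an unadjusted p under 0.05 and 77 were positive, with a median log2 fold change of 0.03. Over the 9 lists of neural, vascular and pituitary markers, 4 of 55 genes passed, GFAP higher and DIO2, TSHB and CGA lower in the follicular phase. Set beside these, the 33 genes had a median of 0.21, the oligodendrocyte markers 0.76, the astrocyte markers 0.58, the neuron markers 0.35, the oligodendrocyte precursor markers 0.28, the endothelial markers 0.15 and the pericyte markers 0.13. The ependyma and tanycyte markers had a median of -0.05 and the pituitary markers of -0.97. The differences between these lists were not tested.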

How the data were processed

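The deposited values are whole-number read counts per gene with no normalization, for 4 libraries. The submitters' processing notes name featureCounts 2.0.0, SAMtools 1.9, TopHat2 2.1.1, Bowtie2 2.3.5.1, FastQC and bcl2fastq 2.20 among the authors' tools. The genome build, annotation, strand setting and treatment of multi-mapping reads were not given in the sources used here, so no coordinates are printed. Of 28907 identifiers, 28873 matched the RefSeq gene table of ARS1.2. Each library is a pool, and totals set the precision of low genes.

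Genes passing filterByExpr (minimum count 10, minimum total 15) entered edgeR's quasi-likelihood test (version 4.0.16, R 4.3.3; TMM scaling, estimateDisp, robust glmQLFit, glmQLFTest), with 1 mean per group. Benjamini-Hochberg adjustment ran over 16756 genes. CPM uses TMM-scaled totals, and errors of fold changes are standard errors. The steps were tested on simulated data. The members and the 22 other lists were chosen with earlier results of these data known. From each of 13 immune lists, up to 4 genes were named, called genes first and then those with the smallest p and a mean of at least 1 CPM. A few genes that this rule picks are not reported here. Other genes outside the members are named for the values they show. Alternatives were RLE scaling, other filters, DESeq2 1.42.0, limma-voom (limma 3.58.1), no robust estimation, leaving out each pool, and a replicate block. The sample titles give the anestrus pools the opposite numbers to the library names, which were used here.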

Additional observations from a re-analysis of the deposited data

How the results depend on the processing

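With 2 pools per group, the counts of calls moved with the setting. The count of all genes called, 34, was 300 with no count filter, 143 with DESeq2 and 4 to 810 with 1 pool left out. Of the members, 0 were called in limma-voom or without robust estimation, and the count also moved with 1 pool left out. Without anestrus pool 1, log2 fold changes of 6 members were 1.87 (APOE), -1.82 (BLNK), 1.09 (C1QC), 0.67 (CD74), 1.08 (IL34) and 1.37 (TREM2). Leaving out an anestrus pool leaves 1, which is assumed to vary like the follicular pools. Calls among the immune lists were 3 with no filter and 0 to 5 with 1 pool left out, and among markers of other cells 15 with no filter, 10 with DESeq2 and 1 to 23 with 1 pool left out.

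The replicate numbers pair no known animals. By library names, deviations of same-numbered pools had r = 0.26 across genes, and numbering by titles turns that sign. A replicate block by library names gave 90 calls over all genes, and by titles 130, with 1 member called in each. By titles the immune lists had 1 call, HDC, and the other markers 13, while by library names the immune lists had 0.

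The sign of 20 of 33 members held in all 12 alternatives. For members whose groups did not overlap, leaving out a pool can hardly turn the sign. AIF1 was at -0.016 in limma-voom, -0.0056 and -0.0061 with a replicate block by library names and titles, and -0.21 to 0.22 with 1 pool left out. C3AR1 was at -0.013 in limma-voom and -0.20 to 0.23 with 1 pool left out. The other members whose sign turned did so only with 1 pool left out: C1QA (-0.015 to 0.47), C3 (-0.19 to 0.18), CD74 (-0.042 to 0.67), FCER1G (-0.14 to 0.13), IRF8 (-0.23 to 0.44), ITGAM (-0.0057 to 0.51), PTPRC (-0.073 to 0.72), SPI1 (-0.056 to 0.54), TLR2 (-0.094 to 0.29), TLR4 (-0.20 to 0.069) and TYROBP (-0.045 to 0.67). Likewise ETV5 ran from -1.01 to 0.085, SERPING1 from -0.53 to 0.0020 and SIGLEC1 from -0.20 to 0.70. CXCR2, near 0, was at 0.013 with RLE, 0.0038 with no filter, 0.013 with the CPM filter, 0.020 in DESeq2, 0.0017 with the replicate block and -0.20 to 0.20 with 1 pool left out. The causes were not tested.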

Other observations

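S100A8 and S100A9, the calprotectin subunits of neutrophils and monocytes, were seen in anestrus pool 1 above the other pools. S100A8 was at 0.118 and 0.232 CPM in the follicular pools, against 4.35 and 0.111 CPM in the anestrus pools. S100A9 was at 0.236 and 0.174 CPM in the follicular pools against 3.72 and 0.500 CPM in the anestrus pools. Neither passed the filter on low counts, and both were named after their values were seen.

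The C1q chains did not keep the same proportions in the 4 libraries. C1QC counts divided by C1QA counts were 1.10 and 0.969 in the follicular pools, against 1.08 and 0.609 in the anestrus pools, and C1QB divided by C1QA was 1.62 and 1.46 in the follicular pools, against 1.42 and 1.30 in the anestrus pools. The ratio of IL34 to CSF1 counts was 1.71 and 1.93 in the follicular pools, against 2.06 and 1.17 in the anestrus pools.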
